A study of Rattus norvegicus with 4 samples.

Results

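Hemoglobin-rich barcodes of rat blood were described in 4 droplet single-cell RNA-seq libraries. A barcode stands for 1 droplet, and counts are UMIs (unique molecular identifiers, 1 for each RNA molecule captured). Kept barcodes held 500 UMIs or more and 200 genes or more, and no more than 20% of their UMIs came from mitochondrially encoded genes. A member had at least 40% of its UMIs from Hbb, Hba-a2 and Hba-a3 together and none from Cd3e, Cd3d or Cd3g, the T cell receptor complex genes. The rule found 4544 members among 45986 kept barcodes. Members were chosen by their hemoglobin counts, so their hemoglobin share and their number are descriptions.

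Per the series' design text, 40 rats with spinal cord injury by Allen's method were divided into 4 groups of 10, and 1 blood library was deposited per group. The groups are sham (Sham), injury without cells (SCI), and injury with mesenchymal stromal cells given either intrathecally, at 10000000 cells/kg (MSC-i.t), or intravenously, at 30000000 cells/kg (MSC-i.v). The cells were given at 72 hours and again at 7 days after injury. Strain, age, sex, the day of bleeding and how many rats each library pools are not given in the labels. The deposited data set of the SCI library is tagged Pre, while the other 3 carry a tag in hours, so that sampling time and group cannot be told apart for SCI. With 1 library per group there is no test: a ratio compares a pair of libraries, and all intervals are exact 95% intervals that cover counting error only.

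Red cells leave the marrow as reticulocytes, which have lost the nucleus but still carry RNA, mostly for globin. As they mature they degrade mitochondria, ribosomes and surplus proteins by mitophagy, lipoxygenase activity and ubiquitin-dependent turnover. Heme is made with the erythroid enzyme Alas2 at the first step and Fech at the last, and the antioxidants Prdx2, Gpx1 and Cat protect the hemoglobin. The factors GATA1 and KLF1 drive most erythroid genes, through GATA and CACCC elements respectively.

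The sequences upstream of the genes that most separated members from kept barcodes under 5% hemoglobin are shown because these genes carry the identity of the members. They were the 15 genes with the highest ratio of their level in members to that in kept barcodes under 5% hemoglobin, and 10 of them matched an entry in the RefSeq promoter table (assembly GRCr8). In the 250 bases before the start, the letters AGATAA, on either strand, occurred in 5 of the 10, against 10.1% of 27457 promoters in that table. The letters CCACACCC, on either strand, occurred in 1 of the 10 against 2.84%. The 5 sequences with AGATAA are printed 5′ to 3′ on the strand of the gene, with the matched letters in capitals.
Lgals5, chr10:64355138-64355387, minus strand: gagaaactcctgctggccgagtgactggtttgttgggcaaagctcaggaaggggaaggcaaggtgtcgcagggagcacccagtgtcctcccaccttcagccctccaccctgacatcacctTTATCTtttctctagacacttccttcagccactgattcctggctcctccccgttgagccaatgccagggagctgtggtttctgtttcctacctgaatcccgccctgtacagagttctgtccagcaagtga
Alas2, chrX:22895200-22895449, plus strand: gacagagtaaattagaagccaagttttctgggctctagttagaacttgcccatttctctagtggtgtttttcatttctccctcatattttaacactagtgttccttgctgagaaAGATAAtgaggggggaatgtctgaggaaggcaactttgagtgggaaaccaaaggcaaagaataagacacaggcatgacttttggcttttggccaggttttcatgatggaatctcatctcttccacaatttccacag
Trim10, chr20:1703470-1703719, minus strand: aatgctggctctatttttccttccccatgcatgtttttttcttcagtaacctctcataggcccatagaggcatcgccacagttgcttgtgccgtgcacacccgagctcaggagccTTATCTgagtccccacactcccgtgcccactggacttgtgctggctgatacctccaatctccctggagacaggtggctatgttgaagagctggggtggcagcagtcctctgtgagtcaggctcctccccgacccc
Hemgn, chr5:65485822-65486071, minus strand: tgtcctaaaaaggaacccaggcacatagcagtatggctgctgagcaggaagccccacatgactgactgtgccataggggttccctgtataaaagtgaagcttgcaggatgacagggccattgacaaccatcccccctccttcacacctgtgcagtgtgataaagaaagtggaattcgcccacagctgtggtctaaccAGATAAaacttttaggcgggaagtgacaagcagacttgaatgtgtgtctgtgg
Rhd, chr5:152370950-152371199, plus strand: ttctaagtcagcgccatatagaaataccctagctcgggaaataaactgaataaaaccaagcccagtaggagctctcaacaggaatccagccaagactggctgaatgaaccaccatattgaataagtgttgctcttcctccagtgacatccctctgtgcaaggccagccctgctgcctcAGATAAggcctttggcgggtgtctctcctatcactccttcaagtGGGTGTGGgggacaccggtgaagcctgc
The match began 130 bases before the start in Lgals5, 136 in Alas2, 135 in Trim10, 53 in Hemgn and 72 in Rhd. In Rhd the letters CCACACCC, on the reverse strand, lay 28 bases before the start and did not overlap AGATAA. A match describes letters in a window and is not evidence of binding.

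Members numbered 950 in Sham, 596 in SCI, 802 in the MSC-i.t and 2196 in the MSC-i.v library. They were 9.28% (Clopper-Pearson interval 8.73 to 9.86) of kept barcodes in Sham, 7.35% (6.79 to 7.94) in SCI, 7.32% (6.84 to 7.82) in the MSC-i.t and 13.2% (12.6 to 13.7) in the MSC-i.v library. MSC-i.v thus held the highest share and SCI and MSC-i.t overlapped. A further 195, 201, 172 and 404 barcodes, in the same order, passed the hemoglobin minimum but held a Cd3 UMI and were left out. The labels do not say whether or how red cells were removed before loading. Member barcodes were shared between libraries 2 times for Sham and MSC-i.v and 2 times for SCI and MSC-i.v, and 0 times for the other pairs. No doublet caller was run.

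The gene minimum removed hemoglobin-rich barcodes unevenly. Barcodes with at least 500 UMIs that failed only the gene minimum numbered 87 in Sham, 80 in SCI, 143 in the MSC-i.t and 808 in the MSC-i.v library. Of these, 69, 53, 109 and 722 also met the hemoglobin and Cd3 conditions. They made up 6.77% of such barcodes and members together in Sham, 8.17% in SCI, 12.0% in the MSC-i.t and 24.7% in the MSC-i.v library. Their median UMI count was 5244 to 5541, far over the minimum of 500 but under the members' 8155 to 11870.5. Their median gene count was 170 to 183. They held a median of 292 to 333 non-globin UMIs, against 588 to 804 in members. Their hemoglobin share resembled that of the members, with medians of 53.4%, 49.1%, 52.3% and 53.6%. Barcodes within 10 genes below the minimum (17, 19, 28 and 145) and within 10 genes above it (22, 16, 26 and 175) were about as frequent on both sides of the minimum. At the hemoglobin minimum, 8, 6, 8 and 21 members lay between 40% and 42%, and 8, 6, 7 and 25 barcodes lay between 38% and 40%.

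**Figure D1:**
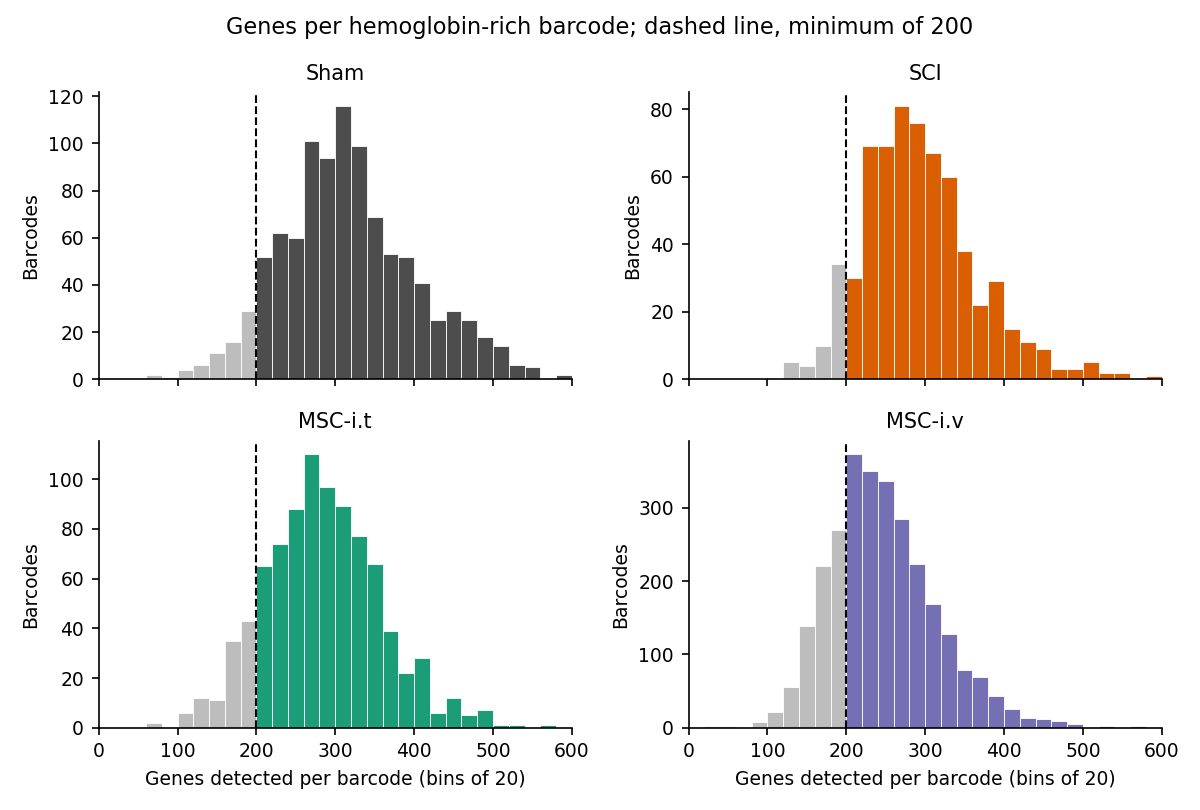
Number of barcodes (y axis) by genes detected per barcode (x axis, bins of 20 genes up to 600) in each library, for barcodes with at least 500 UMIs, at least 40% hemoglobin and no Cd3 UMI; grey bars lie under the minimum of 200 genes. The grey part holds 722 barcodes in MSC-i.v and 53 to 109 in the other 3 libraries.

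Members were deep in UMIs and poor in genes. The median member held 11870.5 UMIs in Sham, 9093 in SCI, 11584 in the MSC-i.t and 8155 in the MSC-i.v library, with a median of 318, 291, 292.5 and 262 genes. After thinning each member to 500 UMIs the medians were 36, 38, 33 and 37 genes, and after thinning to 200 non-globin UMIs they were 123, 125, 120 and 123. The gap of 318 against 262 genes between Sham and MSC-i.v was thus 1 gene or less at equal depth. Mitochondrially encoded genes gave a median of 0.187% to 0.216% of member UMIs, a share that the globin UMIs lower. Of pooled non-globin UMIs they gave 3.26% to 3.49% in members, against 4.22% to 4.53% in kept barcodes under 5% hemoglobin.

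The identity of the members was checked against their markers. Hbb and Hba-a2 are among the erythroid markers, but the rule used them, so their detection was fixed. The other 11 erythroid markers in the files were detected in every library, and Car2 and Tmcc2 were found in 97.8% to 99.4% and 89.2% to 97.3% of members. Car2 was 401-fold and Tmcc2 1488-fold higher in members than in kept barcodes under 5% hemoglobin. Cd52, a gene listed here as a leukocyte marker, was found in 89.1% to 92.3% of members and was 2052-fold higher in them, so it was left out of the leukocyte marker sums. Of the endothelial and stromal markers, 1 of 4 was detected in Sham and 0 in the other 3 libraries. The erythroid markers that the rule did not use were thus present in the members.

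Markers of other blood cells were low and uneven. The 9 monocyte markers summed to 2.04 UMIs per member in Sham, 0.594 in SCI, 0.918 in the MSC-i.t and 1.30 in the MSC-i.v library, beside 1.18, 0.469, 0.555 and 0.779 per barcode with 100 to 300 UMIs, taken here as a measure of free RNA. The 8 B cell markers gave 1.02, 0.166, 0.909 and 1.02 UMIs per member, beside 0.138, 0.0841, 0.106 and 0.115 per such barcode. The 8 platelet markers gave 1.56, 0.393, 1.22 and 0.832 per member, beside 0.955, 0.286, 0.860 and 0.853 per such barcode. SCI was lowest in these 3 classes. The other classes did not share one order. The pan-leukocyte markers other than Cd52 gave 1.01, 0.738, 0.793 and 0.790 UMIs per member, lowest in SCI. They gave 0.414, 0.474, 0.389 and 0.337 per barcode with 100 to 300 UMIs. The 8 neutrophil markers gave 0.177, 0.0252, 0.0362 and 0.0756 UMIs per member, again lowest in SCI, beside 0.164, 0.0174, 0.0354 and 0.0687 per such barcode. The 11 T cell markers, with Cd3 at 0 by the rule, gave 0.173, 0.235, 0.137 and 0.139, highest in SCI. Per such barcode, where Cd3 was not held at 0, they gave 0.207, 0.334, 0.245 and 0.172. The 7 NK cell markers gave 0.117, 0.0587, 0.0823 and 0.0405 per member, lowest in MSC-i.v, beside 0.0352, 0.0430, 0.0361 and 0.0242 per such barcode. In Sham, MSC-i.t and MSC-i.v, but not in SCI, the few members in which globin transcripts made up under 80% of UMIs held the most such markers per barcode. These members numbered 26 in Sham, 1 in SCI, 13 in the MSC-i.t and 62 in the MSC-i.v library, and held a mean of 60.6, 2, 77.2 and 48.0 UMIs of other cell types' markers, against 2.08 to 4.03 in members with at least 90%.

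Globin transcripts filled the members. Hba-a2, an alpha globin gene, gave 51.7% of member UMIs in Sham, 47.3% in SCI, 50.5% in the MSC-i.t and 51.2% in the MSC-i.v library. Hbb, a beta globin gene, gave 3.61%, 2.96%, 1.83% and 3.86%. A gene deposited as LOC103694857, with no entry in the reference table used here, gave 35.4%, 40.3%, 38.9% and 35.5%, and was found in every member. Globin symbols and LOC103694857 together made up a median of 93.0%, 92.2%, 93.4% and 92.5%. The lower 3-gene hemoglobin share of the SCI members, with a median of 49.4% against 52.2% to 54.1%, thus went with more LOC103694857 UMIs. Symbols of embryonic globins were near 0: Hbe1 was found in 2.19% to 3.47% of members and Hbg1 in 1 member of Sham only.

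Members fell into 2 separate ranges of the Hbb share, here Hbb UMIs over Hbb and LOC103694857 UMIs. In the low range the median share was 1.79% in Sham, 3.38% in SCI, 1.77% in the MSC-i.t and 3.36% in the MSC-i.v library. In the high range it was 44.8%, 47.1%, 45.1% and 46.4%. Only 4, 0, 1 and 11 members lay between 10% and 38%. The high range, taken as 20% or more after the values were seen, held 155 members of Sham (16.3%, 14.0 to 18.8), 45 of SCI (7.55%, 5.56 to 9.97), 48 of MSC-i.t (5.99%, 4.45 to 7.86) and 293 of MSC-i.v (13.3%, 11.9 to 14.8). Sham and MSC-i.v therefore held a larger share of high-range members than the other 2 libraries. The rule counted Hbb but not LOC103694857, so the Hbb share is not independent of the rule. The median 3-gene hemoglobin share was 69.5%, 68.9%, 69.6% and 69.0% in the high range, against 53.4%, 49.0%, 51.9% and 53.5% in the low range. Among hemoglobin-rich barcodes failing only the gene minimum, 21.7%, 3.77%, 13.8% and 10.2% lay in the high range. The total of both genes changed little between the ranges: in Sham, Hbb and LOC103694857 gave 17.6% and 22.6% of UMIs in the high range and 0.692% and 38% in the low range. Hba-a2 gave 50.6% in the high range and 52% in the low range of that library. Pooled over barcodes with 100 to 300 UMIs, the Hbb share was 9.04%, 7.59%, 4.55% and 9.25%, beside 9.27%, 6.83%, 4.48% and 9.81% over all members. The 2 genes may share reads, since how reads mapping to both were counted is not given in the sources used here.

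**Figure D2:**
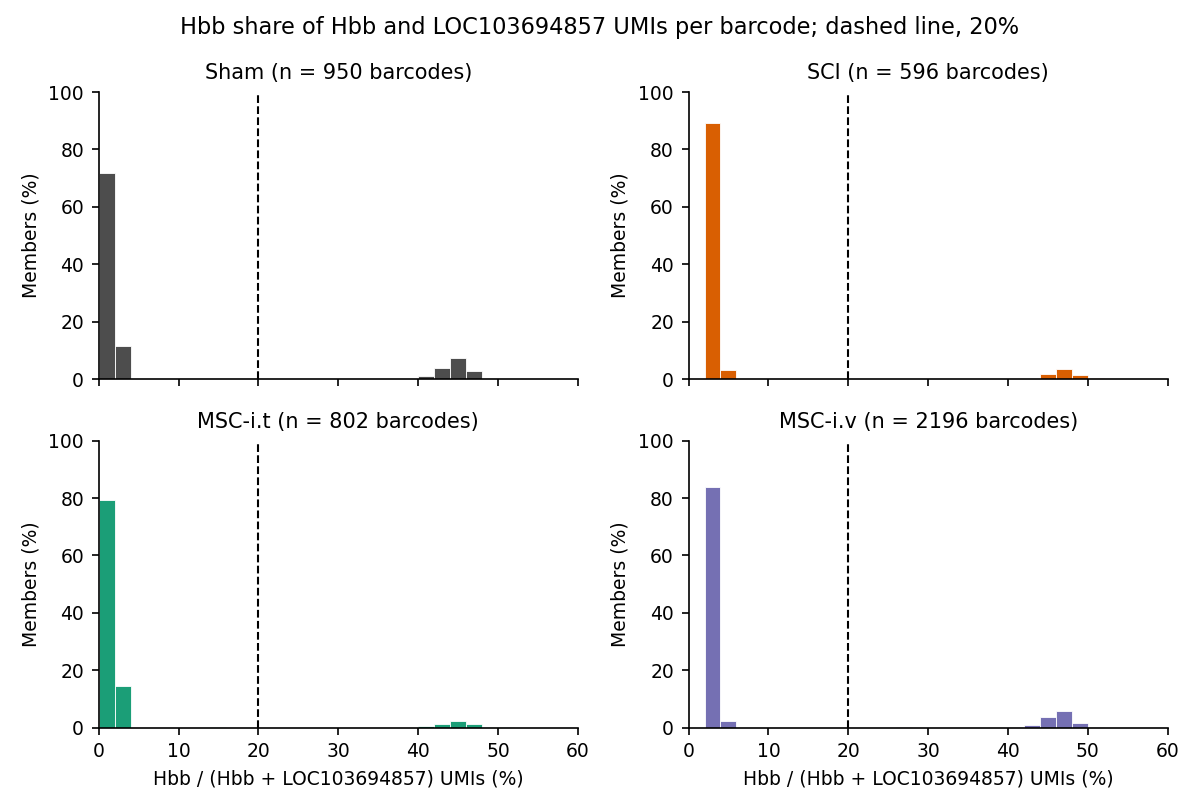
Percent of members (y axis) by Hbb UMIs as a percent of Hbb and LOC103694857 UMIs (x axis, bins of 2 percentage points) in each library, with the number of members above each panel. Members form 2 separate groups, with medians of 1.77% to 3.38% and of 44.8% to 47.1%.

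Few other transcripts differed between the Hbb ranges beyond counting error in all libraries. The high range held only 30367 non-globin UMIs in SCI and 36875 in MSC-i.t, so few genes could meet this there. Within each library, 8.90%, 9.07%, 10.2% and 7.42% of the genes tested were at least 2-fold apart between the ranges. Among 373 genes with enough UMIs in all 4, the interval of the high over low ratio lay above 0 on the log2 scale in all 4 for 2 genes and below 0 in all 4 for 1. The ratio itself, without regard to its interval, was above 0 in all 4 for 23 genes and below 0 in all 4 for 43. Pttg1 (securin), picked after its values were seen, was higher in the high range, with log2 ratios of 0.49 (0.27 to 0.70) for Sham, 0.84 (0.29 to 1.35) for SCI, 0.86 (0.47 to 1.23) in the MSC-i.t and 0.85 (0.64 to 1.05) in the MSC-i.v library. For the 3 other genes picked after their values were seen, the direction varied with the library. Ifit1bl, an interferon-induced family member, was at 274 CPM (UMIs per 1000000 UMIs outside the globin genes) in the high range and 2324 in the low range of Sham, 132 and 1277 in SCI, 488 and 1963 in MSC-i.t, but 1426 and 901 in MSC-i.v. Its direction was thus opposite in MSC-i.v. RT1-A1, a class I histocompatibility gene, had a log2 ratio of -1.02 (-1.54 to -0.53) in Sham but 1.41 (0.85 to 1.93) in MSC-i.t. RT1-T24-4, of the same class, had -2.90 (-3.51 to -2.35) in Sham and 0.61 (0.41 to 0.80) in MSC-i.v. Reads can be split between near-identical RT1 genes, so values of single RT1 genes are uncertain.

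Transcripts other than globin were compared as CPM, here UMIs per 1000000 remaining UMIs, that is, all UMIs outside the globin symbols, LOC103694857 and LOC103694855. Remaining UMIs totalled 894448 in Sham, 448418 in SCI, 677805 in the MSC-i.t and 1524781 in the MSC-i.v library, with a median of 804, 678.5, 747 and 588 per member. A UMI count is per molecule, so levels were not divided by gene length. The 25 most abundant genes outside the ribosomal and mitochondrially encoded genes held 33.6% to 35.8% of remaining UMIs. Cytosolic ribosomal protein genes, which lead in most blood cells, held 13.5%, 15.5%, 13.5% and 14.8% in members, against 38.7% to 41.4% in kept barcodes under 5% hemoglobin.

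Antioxidant transcripts led. Gpx1, glutathione peroxidase, was at 28067 CPM in Sham, 28708 in SCI, 31561 in the MSC-i.t and 30502 in the MSC-i.v library. Prdx2, peroxiredoxin, was at 26591, 24007, 27776 and 28400. Cat, catalase, was lower at 2100, 1929, 2167 and 1785. These levels lay close together across the libraries. Of the 15 genes of gas exchange and antioxidant defence, 9 were over 100 CPM and at least 2-fold above the barcodes under 5% hemoglobin. Among them Car2, carbonic anhydrase, was at 13157, 14076, 15943 and 14428, and Car1 at 641, 397, 460 and 490.

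Globin assembly and heme transcripts followed. Ahsp, the chaperone of free alpha globin, was at 22737 CPM in Sham, 18362 in SCI, 22008 in the MSC-i.t and 22207 in the MSC-i.v library, lowest in SCI. Alas2 was at 9423, 12888, 11968 and 9813, highest in SCI. Fech was at 3781, 3735, 4798 and 3883. Slc25a39, a mitochondrial carrier of glutathione, was at 6975, 6837, 7048 and 7132, and Urod at 2732, 2174, 2470 and 2526. Of the 13 heme synthesis genes, 9 to 11 had enough UMIs in each of the 4 comparisons below, and none of these was 2-fold apart. Among iron genes, the ferritin chains Fth1 and Ftl1 were at 14367 to 19856 and 16721 to 21562 CPM, while Tfrc, the transferrin receptor, was at 104 to 171.

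Membrane genes were present at a wide range of levels. Slc4a1, the anion exchanger, was at 7208 CPM in Sham, 6295 in SCI, 7734 in the MSC-i.t and 5367 in the MSC-i.v library. Rhd, a Rh blood group protein, was at 4232, 4398, 4549 and 4847 and was found in 88.1% to 93.6% of members. Aqp1, the water channel, was at 976 to 1132 and Kel, a blood group peptidase, at 491 to 620. The spectrin chain gene Sptb was sparse, at 99.7 to 156. Of the 28 membrane and cytoskeleton genes, 17 were over 100 CPM and at least 2-fold above the other kept barcodes.

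Genes with the highest contrast to kept barcodes under 5% hemoglobin were Lgals5, a rat galectin of reticulocytes, at 16600, 16578, 18778 and 17917 CPM, and Ahsp. Their levels in members were 3476-fold and 2773-fold those in barcodes under 5% hemoglobin. Others among the 15 were Alas2, Tinagl1, Cd52, Mylk2, Trim10, Hemgn, Kel, Rhd, Tmcc2, Aqp1, Alox15 and RGD1310507. Hemgn was at 417, 682, 484 and 422 CPM, and Trim10 at 350, 306, 345 and 279.

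Maturation transcripts were also abundant. Bnip3l, the mitophagy receptor of reticulocytes, was at 7154 CPM in Sham, 6951 in SCI, 7763 in the MSC-i.t and 6050 in the MSC-i.v library. Gabarapl2, an autophagy adaptor, was at 8670, 9116, 9572 and 8835. Bpgm, which makes the bisphosphoglycerate that tunes oxygen binding, was at 15901, 13530, 16964 and 12854. The transcription factor Klf1 remained detectable at 1011, 946, 1042 and 883. Of 16 proliferation genes, only Ube2c was both over 100 CPM and at least 2-fold above the other kept barcodes, at 887, 629, 965 and 1030 CPM. Against barcodes with 10 to 100 UMIs, a second measure of free RNA, 359 of 1153 genes were at least 4-fold higher in members and 111 at least 4-fold lower in Sham. The counts were 302 and 42 of 679 in SCI, 332 and 103 of 888 in the MSC-i.t library, and 373 and 82 of 1641 in the MSC-i.v library.

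**Figure D3:**
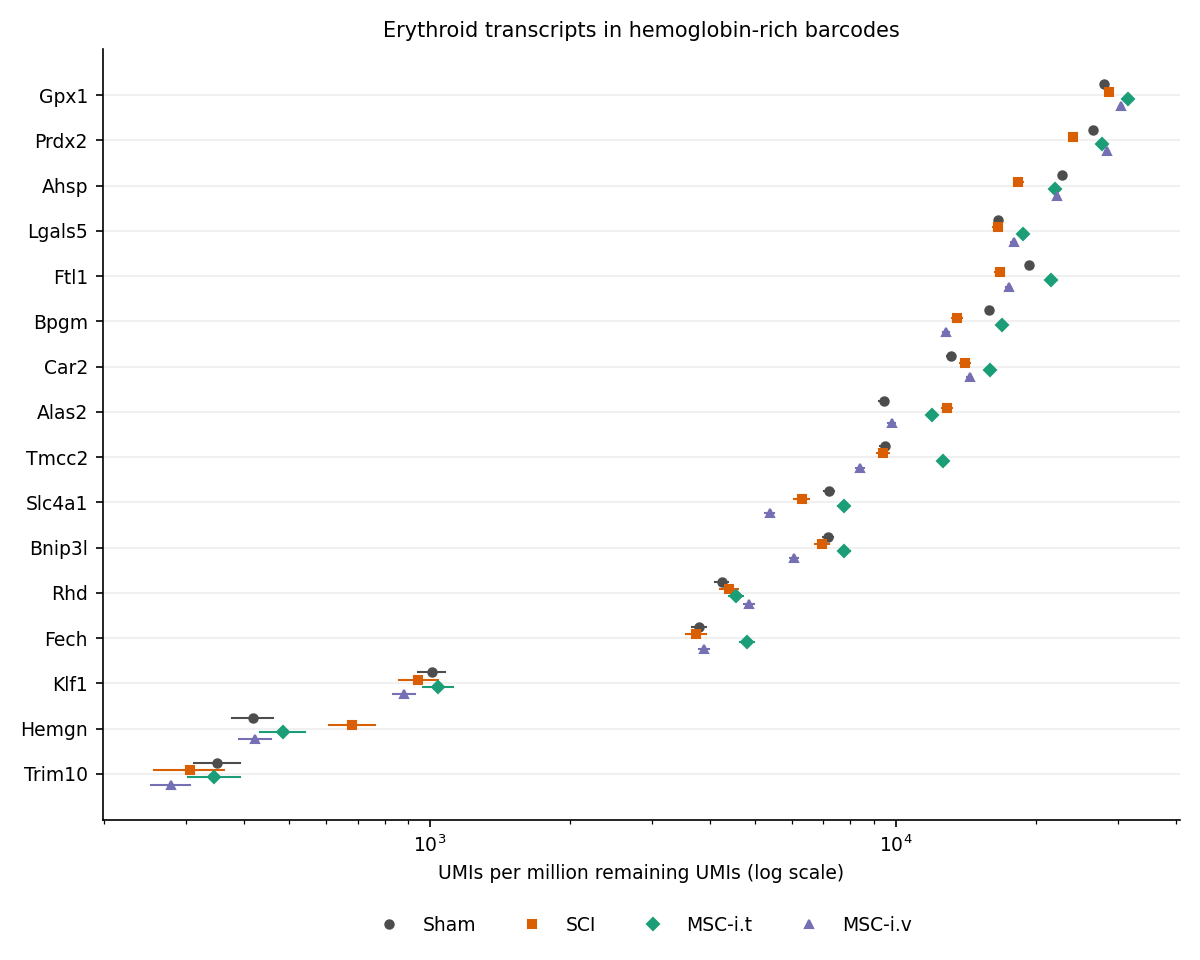
Level in CPM, that is, UMIs per 1000000 remaining UMIs (x axis, log scale) of 16 erythroid transcripts (y axis) in each of the 4 libraries; lines are exact 95% Poisson intervals, for counting error only. The libraries lie close together for most genes, with Alas2 highest in SCI at 12888 and Hemgn highest in SCI at 682.

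SCI was compared with Sham, a contrast of injury with sham by the labels. Transcripts at least 2-fold higher in SCI included Nudt4, Ybx3, Ube2o and Glrx5, and those at least 2-fold lower included Alox15 and Cd74. Of 1165 genes with at least 50 UMIs in one of the 2 libraries, 43 were at least 2-fold higher in SCI (3.69%) and 108 at least 2-fold lower (9.27%). The SCI library held fewer remaining UMIs, so that this minimum admits more genes that are low in SCI. With a minimum of 100 CPM in one library in its place, chosen after the data were seen, the counts were 45 and 52 of 833. The median log2 ratio over the 1165 genes was -0.16.

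Nudt4, an inositol pyrophosphate hydrolase, was at 359 CPM in Sham, 2988 in SCI, 353 in the MSC-i.t and 324 in the MSC-i.v library. It was found in 77.5% of SCI members against 19.8% to 25.9% in the other 3, and the log2 ratio of SCI over Sham was 3.06 (2.88 to 3.24). In kept barcodes under 5% hemoglobin that ratio was 0.96. Ybx3, a Y-box RNA-binding protein, was at 5423, 16222, 6376 and 4454, a log2 ratio of 1.58 (1.53 to 1.63) beside 0.32 in the barcodes under 5% hemoglobin. For both genes SCI stood above the other 3 libraries, and the ratio was larger in the members than outside them. A ratio higher in members than outside them was not particular to Nudt4 and Ybx3. Ahsp, at -0.31 in members and -1.39 in barcodes under 5% hemoglobin, was less negative in members, as was Lgals5 (values below). For Ahsp and Lgals5 the difference between SCI and Sham was thus smaller in members, while for Nudt4 and Ybx3 it was larger.

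Ube2o, the ubiquitin enzyme that clears proteins from maturing reticulocytes, was at 193 CPM in Sham, 957 in SCI, 224 in the MSC-i.t and 109 in the MSC-i.v library. Its log2 ratio of SCI over Sham was 2.31 (2.05 to 2.57), beside 1.70 in barcodes under 5% hemoglobin. Tspan33, a tetraspanin, was at 125, 406, 88.5 and 104, with a log2 ratio of 1.70 (1.35 to 2.05) beside 0.52. Map1lc3a, an autophagosome protein, was at 29.1, 223, 36.9 and 42.6, with a log2 ratio of 2.94 (2.31 to 3.62) beside 0.53. Among the 15 mitophagy and survival genes, 10 had enough UMIs and 3 were at least 2-fold higher in SCI: Pim1 (a kinase) at 3.30, Mxi1 (a MAX partner) at 1.44 and Pink1 (a mitophagy kinase) at 1.19 on the log2 scale. None of the 10 was 2-fold lower, and the list's median was 0.10 against -0.16 over all genes tested. Of all genes tested, 3.69% were at least 2-fold higher in SCI and 9.27% at least 2-fold lower. The ratios of Pim1, Mxi1 and Pink1 in barcodes under 5% hemoglobin are not given here.

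Several differences were also at least 2-fold outside the members. Glrx5, a mitochondrial glutaredoxin of iron-sulfur cluster synthesis, was at 2773 CPM in Sham, 9273 in SCI, 1781 in the MSC-i.t and 4195 in the MSC-i.v library. Its log2 ratio was 1.74 (1.67 to 1.81) in members and 1.80 in barcodes under 5% hemoglobin. Gclm, a subunit of glutamate-cysteine ligase, had 1.17 (1.05 to 1.28) and 1.29. Jund, an AP-1 factor, had 2.26 (1.91 to 2.62) and 2.02. Nrtn, neurturin, had 2.59 (2.22 to 2.98) and 1.67. AABR07000398.1, an unnamed gene, had 1.32 (1.27 to 1.38) and 1.34. The differences of these 5 genes were thus not confined to hemoglobin-rich barcodes. The remaining genes with the highest ratios were Smap1, Taf10, Rab21, Ube2m, Rnf11l1 and Suds3, with log2 ratios of 3.30, 3.08, 2.97, 2.96, 2.69 and 2.61, beside 2.34, 3.37, 2.33, 2.49, 1.89 and 1.02.

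Alox15, the lipoxygenase of reticulocyte organelle breakdown, was at 15298 CPM in Sham, 5493 in SCI, 14023 in the MSC-i.t and 12604 in the MSC-i.v library. It was found in 62.6% of SCI members and in 79.5% to 80% of the others. The log2 ratio of SCI over Sham was -1.48 (-1.54 to -1.42), and -2.01 in barcodes under 5% hemoglobin. The same ratio in those barcodes was -1.39 for Ahsp and -1.32 for Lgals5, which were at -0.31 and 0.00 in members, and globin transcripts made up 9.36% of UMIs in barcodes with 100 to 300 UMIs in SCI against 17.7% in Sham. Arl4a, a small GTPase, had -1.33 (-1.73 to -0.96) in members beside 0.29, and Psme4, a proteasome activator, had -1.24 (-1.69 to -0.81) beside 0.32.

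The 10 lowest ratios belonged mostly to genes known from other blood cells: Fabp5, Ctsz, S100a9, Clic2, Cd9, Myl9, Fcmr, Cd74, Pla2g2a and S100a8, at -3.48 to -2.36 on the log2 scale. Cd74, the MHC class II invariant chain of antigen-presenting cells, was at 719 CPM in Sham, 138 in SCI, 720 in the MSC-i.t and 1008 in the MSC-i.v library. Over members with at least 85% globin transcripts, its log2 ratio moved from -2.38 to -0.37. Over those members 54 of 1001 genes were at least 2-fold lower in SCI, in place of 108 of 1165. The part of monocyte, neutrophil, B cell and platelet RNA in these lower values, which was lowest in SCI as given above, was not tested further.

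Of the gene lists, heme synthesis had 0 of 11 genes past 2-fold, membrane and cytoskeleton 1 of 19 (Tspan33), and erythroid transcription factors 0 of 6. The type I interferon list had 1 of 9 higher, Irf7, at 114 CPM in Sham and 317 in SCI, and a median log2 ratio of 0.54. Nuclear genes of the respiratory chain had 5 of 58 lower (Cox5a, Ndufa11, Ndufa5, Ndufs8 and Uqcrq) and 0 higher, with a median of -0.41. Cytosolic ribosomal protein genes had 0 of 75 past 2-fold and a median of 0.29. Over all genes tested, 3.69% were 2-fold higher and 9.27% lower, so the count of lower respiratory chain genes was no larger a share than that. Set against the median of -0.16 over all genes tested, the medians of interferon and ribosomal protein genes lay above it and that of respiratory chain genes below it.

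**Figure D4:**
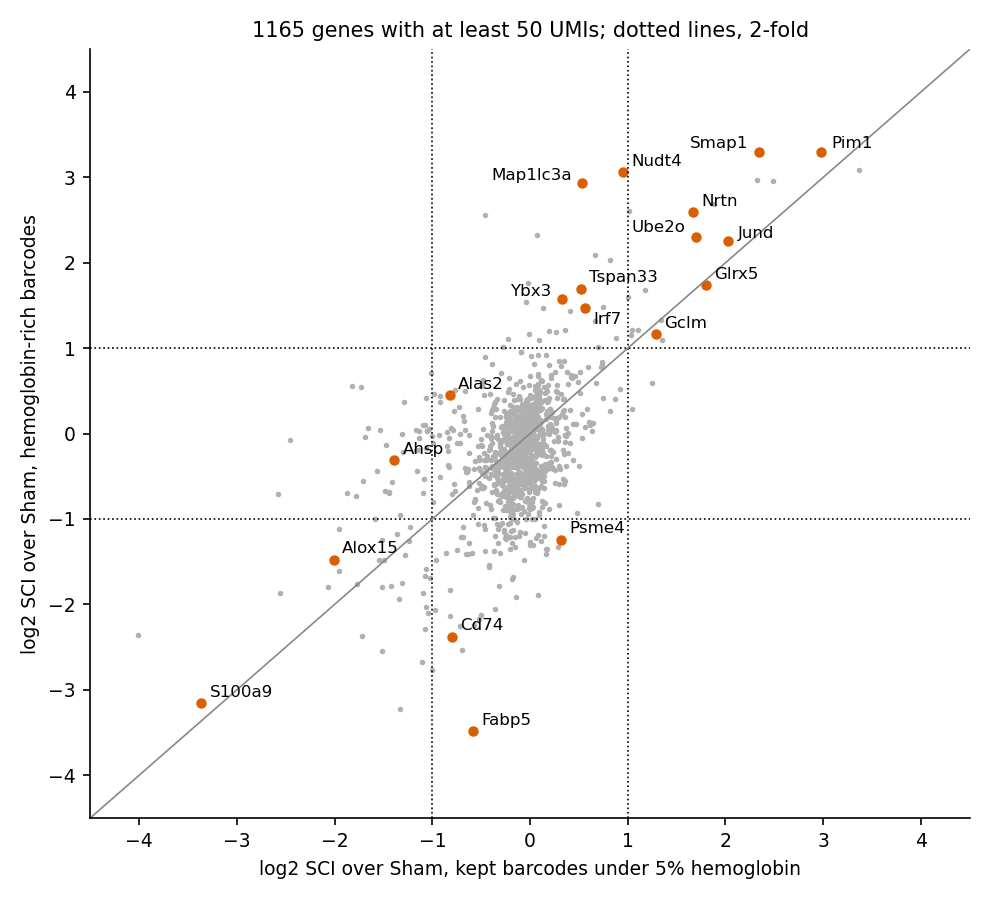
The log2 ratio of SCI over Sham in hemoglobin-rich barcodes (y axis) against that in kept barcodes under 5% hemoglobin (x axis) for 1165 genes; the solid line marks equal ratios and orange points are named genes. Glrx5, Gclm and Jund lie near the line, while Nudt4 (3.06 against 0.96), Ybx3 (1.58 against 0.32) and Map1lc3a (2.94 against 0.53) lie above it.

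The SCI library stood apart from all 3 others. Of 910 genes with enough UMIs in each comparison, 31 were at least 2-fold higher in SCI than in each of the other 3 libraries (3.41%) and 22 at least 2-fold lower (2.42%). Of the 31, 14 were also 2-fold above each of the others in barcodes under 5% hemoglobin. The 3 comparisons with SCI below share that library, so their calls are not independent of each other.

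**Figure D5:**
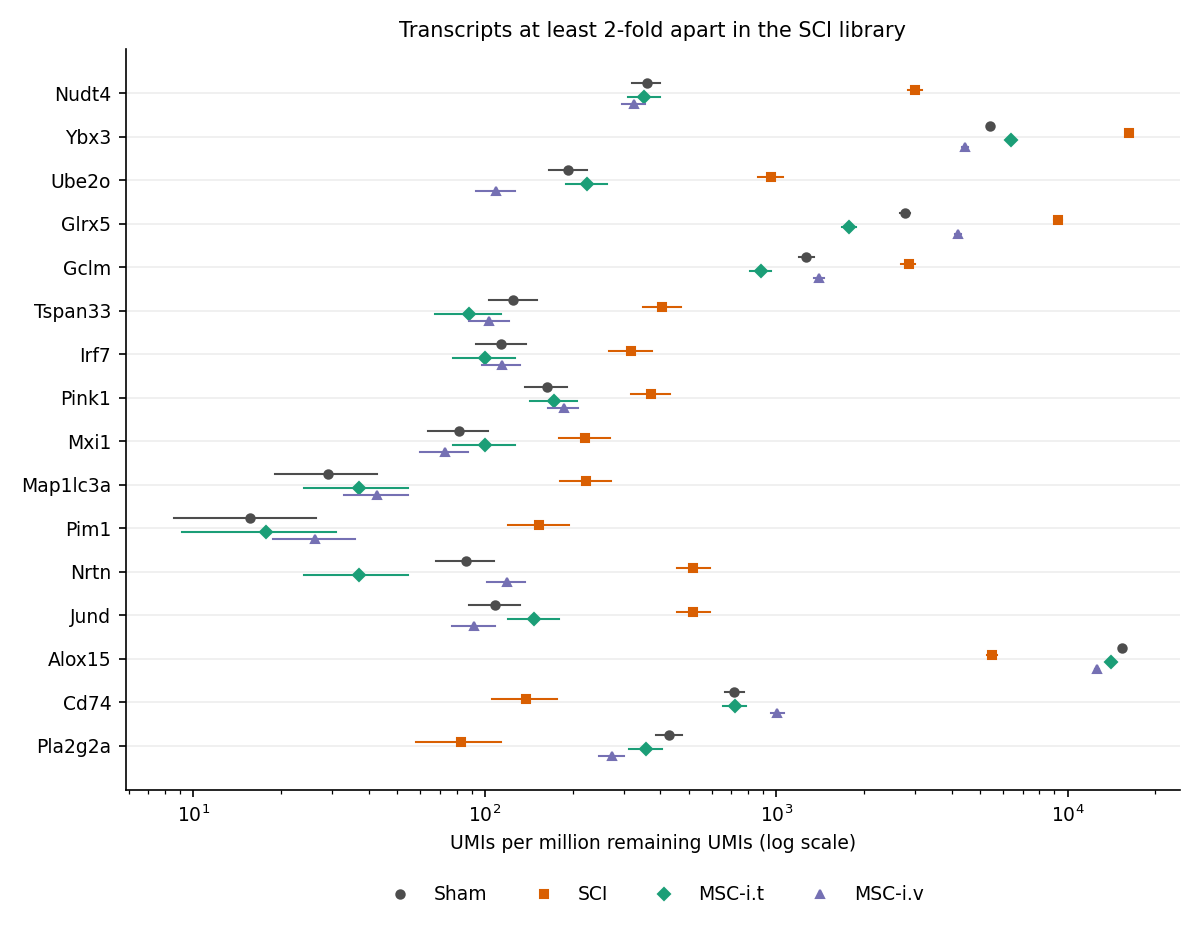
Level in CPM, that is, UMIs per 1000000 remaining UMIs (x axis, log scale) of 16 transcripts at least 2-fold apart between SCI and Sham (y axis) in the 4 libraries; lines are exact 95% Poisson intervals, for counting error only. SCI is highest for the 13 genes from Nudt4 to Jund and lowest for Alox15, Cd74 and Pla2g2a.

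MSC-i.t was compared with SCI, which sets intrathecal cells against injury alone. Of 914 genes tested, 32 were at least 2-fold higher in MSC-i.t (3.5%) and 48 at least 2-fold lower (5.25%), with a median log2 ratio of 0.08. Scaled to all UMIs, globin included, the counts were 21 and 58 and the median shifted by -0.17. The lower genes included Nudt4 at -3.08 (-3.29 to -2.88), Glrx5 at -2.38 (-2.47 to -2.29), Tspan33 at -2.20 (-2.64 to -1.77), Ube2o at -2.09 (-2.37 to -1.82) and Ybx3 at -1.35 (-1.40 to -1.29). Alox15 was higher at 1.35 (1.29 to 1.42), and Psme4 at 1.08 (0.64 to 1.55). Psme4 missed 2-fold when scaled to all UMIs, at 0.92, and with LOC103694857 and LOC103694855 kept, at 0.99. In the barcodes under 5% hemoglobin the ratio of Glrx5 was -2.64 and that of Nudt4 -1.14. The 10 highest ratios were again genes of B cells, platelets and antigen presentation, led by Myl9, Fcmr, RT1-Ba and Cd74.

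The interferon list was lower in MSC-i.t for 4 of 9 genes and higher for 0, with a median of -0.59 against 0.08 over all genes. Of all genes tested, 5.25% were at least 2-fold lower and 3.5% at least 2-fold higher. Isg15, a ubiquitin-like modifier, was at 493 CPM in SCI and 192 in MSC-i.t. Irf7, a transcription factor of the response, was at 317 and 100, Ifi27 at 781 and 323, and Oas1a, an RNA sensor, at 127 and 59.0. Oas1a missed 2-fold with every member given equal weight, at -0.91 on the log2 scale, and Ifi27 over members with at least 50% hemoglobin, at -0.92. In Sham the 4 genes were at 254, 114, 537 and 86.1. In barcodes under 5% hemoglobin the log2 ratios were -0.40 for Isg15, -0.97 for Irf7, 0.93 for Ifi27 and -0.16 for Oas1a, so that Ifi27 had the opposite sign there. Rsad2, another interferon-induced gene, was abundant in members of every library, at 3335, 4465, 4032 and 2966 CPM, and was not 2-fold apart.

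MSC-i.v was compared with SCI, which sets intravenous cells against injury alone. Of 1646 genes tested, 152 were at least 2-fold higher in MSC-i.v (9.23%) and 42 at least 2-fold lower (2.55%). Under the minimum of 100 CPM the counts were 32 and 41 of 819, so the excess of higher over lower genes seen with a minimum of 50 UMIs was not seen with this one. Nudt4 had a log2 ratio of -3.21 (-3.36 to -3.06), Ube2o -3.14 (-3.40 to -2.87), Jund -2.50 (-2.81 to -2.19), Nrtn -2.13 (-2.42 to -1.84), Tspan33 -1.97 (-2.29 to -1.65), Ybx3 -1.86 (-1.91 to -1.82) and Glrx5 -1.14 (-1.20 to -1.09). Glrx5 missed 2-fold with LOC103694857 and LOC103694855 kept in the scale, at -0.98. Alox15 was higher at 1.20 (1.14 to 1.26). Irf7 was lower at -1.47 (-1.80 to -1.14), the only one of 11 interferon genes past 2-fold.

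The MSC-i.v and MSC-i.t libraries were closer to each other. Of 1641 genes, 50 were at least 2-fold higher in MSC-i.v (3.05%) and 3 at least 2-fold lower (0.183%), or 8 and 2 of 782 under the minimum of 100 CPM. With LOC103694857 and LOC103694855 kept in the scale the median over all genes shifted up by 0.26, and the counts were 123 and 0. Glrx5 was the most abundant gene past 2-fold among those named, at 1781 CPM in the MSC-i.t and 4195 in the MSC-i.v library, a log2 ratio of 1.24 (1.15 to 1.33) beside 1.54 in barcodes under 5% hemoglobin. The 3 lower genes were Ccl5 at -1.18, Ube2o at -1.04 and Mical2 at -1.03, and none of them passed 2-fold when scaled to all UMIs or with LOC103694857 and LOC103694855 kept. Ccl5, a chemokine of T and NK cells, was found in 9.48% and 7.79% of members. Its ratio was 0.15 over members with at least 85% globin transcripts and 0.39 over members in the low Hbb range. The 10 highest ratios included Spi1 at 2.64 (1.20 to 4.56), Fn1 at 2.12 (1.18 to 3.23) and S100a8 at 1.96 (0.97 to 3.15), genes known from myeloid cells, and the monocyte markers summed to 1086 CPM in MSC-i.t, against 1876 in MSC-i.v. The part of monocyte RNA in these values was not tested. Scand1 at 2.07 (1.52 to 2.68) and Lmo2, an erythroid transcription cofactor also found in myeloid cells, at 2.0 (0.79 to 3.51) were higher in MSC-i.v, beside 1.34 and 1.33 in barcodes under 5% hemoglobin. Lmo2 rested on 6 and 54 UMIs, too few to compare over members with at least 85% globin transcripts. Slc4a1, Tmcc2 and Bpgm were lower in MSC-i.v by less than 2-fold, at -0.53, -0.59 and -0.40. With LOC103694857 and LOC103694855 kept in the scale they were at -0.27, -0.33 and -0.14. Over the few members with 0 UMIs of other cell type markers they were at 0.55, -0.70 and 0.10, so the direction of Slc4a1 and Bpgm did not hold there.

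Against Sham, the 2 libraries with cells differed in fewer genes than SCI did. In MSC-i.t 2 of 1159 genes were at least 2-fold higher (0.173%) and 27 at least 2-fold lower (2.33%). In MSC-i.v 15 of 1646 were higher (0.911%) and 7 lower (0.425%). The SD of log2 ratios over the genes tested was 0.36 in both, against 0.71 for SCI over Sham. Nudt4 had -0.03 (-0.27 to 0.22) in the MSC-i.t and -0.15 (-0.35 to 0.06) in the MSC-i.v library, and Glrx5 had -0.64 (-0.74 to -0.54) and 0.60 (0.53 to 0.66). These 2 comparisons share the Sham library.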

How the data were processed

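Cell Ranger 4 wrote the deposited UMI counts per gene and barcode, per the file headers, as unfiltered matrices of 25340 genes by 6794880 barcodes, and no value had been normalized by the authors. The submitters' processing notes name the build mRatBN7.2; the annotation and the counting of multi-mapped reads are not given in the sources used here. Libraries held 63133881 to 91124523 UMIs. Matrix rows with the same symbol were summed. Members and gene lists were chosen with earlier results of these data known.

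Member UMIs were summed per library and divided by remaining UMIs. LOC100134871 was counted as globin (Hbbl1 by gene ID in the RefSeq table of assembly GRCr8). LOC103694857 and LOC103694855 have no entry there and were set aside after the data were seen, since LOC103694857 alone would take most of the scale; the design named hemoglobin only. Genes reaching 50 UMIs in either library were called at 2-fold, with a floor of 3 counts. Intervals are exact conditional binomial for ratios, Poisson for levels and Clopper-Pearson for shares. UMIs are counted molecules, and intervals cover counting error only.

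Named genes are the 25 most abundant, the 15 with the highest ratio over kept barcodes under 5% hemoglobin (at least 50 UMIs in every library), the 10 highest and 10 lowest per comparison with UMIs in at least 2% of members, and members of the lists; Pttg1, RT1-A1, RT1-T24-4 and Ifit1bl between the Hbb ranges were picked after seeing values. Of 301 list and marker symbols, 13 were not analysed here, and some genes that the rule names are not reported here. The ratio step was tested on simulated data. Python 3.11.15, numpy 2.4.6, scipy 1.17.1 and pandas 2.3.3 were used. The protocol in the labels describes a bulk preparation and was not used.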

Additional observations from a re-analysis of the deposited data

How the results depend on the processing

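Counts below are of genes at least 2-fold higher and lower. With at least 20 UMIs in place of 50, they were 85 and 301 for SCI over Sham, 102 and 97 for MSC-i.t over SCI, 439 and 93 for MSC-i.v over SCI, and 269 and 12 for MSC-i.v over MSC-i.t. Members with 0 UMIs of any other cell type marker numbered 5, 13, 11 and 35 (Sham, SCI, MSC-i.t, MSC-i.v) and gave 4 and 1, 1 and 3, 5 and 2, and 5 and 0, in the same order of comparisons, over 28 to 77 genes. Without Cd52 among those markers, 54, 106, 128 and 257 members gave 13 and 4, 6 and 12, 11 and 8, and 4 and 0, over 236 to 349 genes; fewer members leave fewer genes to test. Scaling to all UMIs gave 21 higher in MSC-i.t over SCI, and 96 and 0 in MSC-i.v over MSC-i.t. A UMI minimum of 1000 removed no member, so its counts of genes could not differ. A gene minimum of 100, equal weight per member and a scale without mitochondrial and ribosomal protein genes kept all counts of genes and members within 1.5 times.

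The other alternatives were chosen after the data were seen. With LOC103694857 and LOC103694855 in the scale, MSC-i.v over MSC-i.t gave 123 and 0. With at least 50% hemoglobin, SCI kept 259 members and MSC-i.t over SCI gave 26 lower. Over members with at least 85% globin transcripts, SCI over Sham gave 54 lower, MSC-i.t over SCI 18 higher and MSC-i.v over SCI 57 higher. With free RNA subtracted, the counts were 217 lower in SCI over Sham, 78 higher in MSC-i.t over SCI, 396 higher in MSC-i.v over SCI, and 157 and 14 in MSC-i.v over MSC-i.t; the cause was not tested. At 100 CPM or more in one library, 52 were lower in SCI over Sham, 32 higher in MSC-i.v over SCI and 8 higher in MSC-i.v over MSC-i.t.

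A minimum of 80% hemoglobin left 0, 0, 0 and 1 members and 0 barcodes failing only the gene minimum, so its comparisons were not run. Median genes per member were 123, 125, 120 and 123 at 200 remaining UMIs, and 318, 291, 292.5 and 262 without thinning, against 36, 38, 33 and 37. For 56 gene ratios or 2-fold calls of the text, 11 alternatives that could change a ratio gave 531 values, of which 509 stayed on their side of 2-fold and 19 fell under it. Not every alternative gave a value for each of the 56. With 0 UMIs of other markers, only 10 values stayed on their side of 2-fold, 3 fell under it and 1 past 2-fold changed sign. Ratios under 2-fold were counted as staying whatever their sign. In that setting Slc4a1 and Bpgm in MSC-i.v over MSC-i.t moved from -0.53 and -0.40 to 0.55 and 0.10. Lgals5 in SCI over Sham moved from -0.0019 to 0.68. Without Cd52 among those markers, 21 stayed and 2 fell under 2-fold. Among ratios past 2-fold, Alox15 in MSC-i.t over SCI had the opposite sign with 0 UMIs of other markers (-0.23). Ccl5 in MSC-i.v over MSC-i.t had it over members with at least 85% globin transcripts (0.15) and in the low Hbb range (0.39). No paired analysis was possible because each group holds 1 library. With 448418 remaining UMIs in SCI, a gene under 50 UMIs there and in its partner was not compared.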
